A study of Mus musculus with 10 samples.

Results

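The Hox cluster genes are the mouse homeobox genes named Hoxa, Hoxb, Hoxc or Hoxd with a number from 1 to 13. They were taken by gene name from the gene probes of the array, which gave 39 genes of 31539 gene names: 11 in the Hoxa cluster on chromosome 6, 10 in Hoxb on chromosome 11, 9 in Hoxc on chromosome 15 and 9 in Hoxd on chromosome 2. The 39 genes had 43 probes, because 4 genes had 2 each, among them Hoxa9, Hoxa13 and Hoxb3. The rule uses gene names alone.

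RNA of mouse embryonic stem (ES) cells, which are grown from the early embryo and can form all its tissues, was hybridised to 10 two-colour oligonucleotide arrays, each with 1 RNA labelled in Cy3 and another in Cy5. The cells lacked Tet1, Tet2 or both, or were wild type (WT), and lines compared on an array were of the same sex. RNA of lines without both genes was set against WT RNA on the same arrays, and RNA of a line without Tet2 against that of a line without Tet1. Tet1 and Tet2 oxidise 5-methylcytosine in DNA. The WT lines were 6 and 92 (male) and 7 and 94 (female), and the lines without Tet1 and Tet2 (DKO) were 51 and 61 (male) and 60 and 59 (female). Lines 65 and 99 lacked Tet1 (T1KO, male), and line 16, the 1 line of its genotype, lacked Tet2 (T2KO, male). The 11 lines came from mice on a mixed C57/BL/6 background and grew in medium with LIF on irradiated feeders, which were taken off by preplating before RNA extraction. The 4 DKO and WT pairs were DKO 51 with WT 6 (2 arrays), DKO 61 with WT 92 (1 array), DKO 60 with WT 7 (1 array) and DKO 59 with WT 94 (2 arrays). T2KO 16 was hybridised with T1KO 65 on 2 arrays. T1KO 99 was hybridised on 2 arrays with a sample that the labels leave out for a false genotype, and that sample entered no comparison here. DKO and T2KO RNA was always in Cy5 and WT and T1KO RNA always in Cy3, so that dye and genotype cannot be told apart where the channels are compared. Male DKO pairs, female DKO pairs and the T1KO and T2KO arrays each lay on a slide of their own, so sex and slide cannot be told apart among the DKO pairs, nor can genotype and slide where T1KO is set against WT or DKO against T2KO.

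Hox genes encode transcription factors that give cells their position along the body axis. Their order on the chromosome follows the order of their expression, with paralog group 1 earliest and most anterior and group 13 latest and most posterior. In ES cells the clusters are known as a classic target of Polycomb repression, with both activating and repressive histone marks over CpG-rich promoters, and Tet1 is known to bind such promoters.

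Most Hox genes gave little or no signal in these cells. Of the 39 genes, 17 were well above background (the scanner software's flag for a spot clearly brighter than its surroundings) in no labelled array channel, and 4 were so in all 18 labelled array channels, among them Hoxc6, Hoxb13 and Hoxc13. Testing was limited to probes with this flag on every array of some genotype and sex, in that group's channel. This held for 20 of the 43 Hox probes (46.5%), against 65.6% of the 39429 gene probes, and these 20 stand for 19 genes. Of them, 10 (50%) met it in Cy5 groups (DKO or T2KO) and in no Cy3 group (WT or T1KO), as did 3298 of the 25869 tested probes, so that a signal in DKO or T2KO cells was a condition of their being tested. By cluster, 6 of 11 Hoxa genes, 6 of 10 Hoxb genes, 4 of 9 Hoxc genes and 3 of 9 Hoxd genes were tested. By paralog group, the tested genes were 7 of 12 in groups 1 to 4, 6 of 11 in groups 5 to 8 and 6 of 16 in groups 9 to 13. The 17 genes above background in no labelled channel were Hoxa2, Hoxa5, Hoxa10, Hoxa11, Hoxb1, Hoxb5, Hoxb8, Hoxc5, Hoxc8, Hoxc10, Hoxc11, Hoxd1, Hoxd3, Hoxd9, Hoxd10, Hoxd11 and Hoxd12. Every paralog of groups 5, 10 and 11 was among them.

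**Figure D1:**
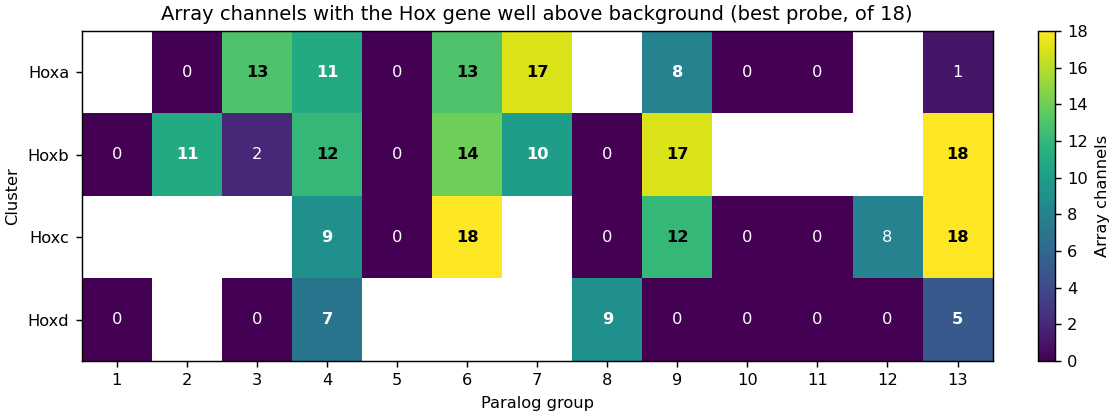
The map shows, by cluster (rows) and paralog group (columns), on how many of 18 labelled array channels the best probe of a Hox gene was well above background, with tested genes in bold and no value plotted in white fields. Hoxc6, Hoxb13 and Hoxc13 reach 18, and 17 genes stand at 0.

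The remaining 3 genes were seen on some arrays without passing the filter. Hoxc12 was well above background on 3 Cy3 and 5 Cy5 arrays, Hoxb3 on 2 female DKO arrays and Hoxa13 on 1 T2KO array. The accessions that the array gives for the Hoxb3 probe that was seen belong to both Hoxb3 and Hoxd3 in the RefSeq table, so its signal is not that of 1 gene alone.

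For 4 genes on which the values below turn, 30 bases of each 60-base probe are shown as the array's design writes them, 5′ to 3′. Capitals mark the letters AATAAA, the core of the polyadenylation signal, which were searched on the strand of the probe only. Where a probe holds them the 30 bases lie around them, and otherwise they are the first 30.
Hoxb9: gcttgtgttttgtgatttctttggcagtga
Hoxb13: gagctgattgtgAATAAAttcggaagacga
Hoxc4: cccgtgatcaatAATAAAccagtggctgtg
Hoxc13: actggctcattacaaaacagtgttcttttg
These letters occurred in 7 of the 43 Hox probes (16.3%) and in 12.6% of all 39429 gene probes, which is a description of the letters and not of a site. In mm9, the assembly used by the array's design, the probes shown lie on chromosome 11 from 96137748 to 96137807 (Hoxb9) and from 96057854 to 96057913 (Hoxb13), and on chromosome 15 from 102867213 to 102867272 (Hoxc4) and from 102759058 to 102759117 (Hoxc13). Whether they lie in coding sequence or a UTR was not analysed here.

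Levels are log2 intensities after background correction and normalization, with a constant of 50 added before the log, so that a dim probe settles near 6 and changes of dim probes are understated. Probes differ in brightness, so levels are compared between lines for 1 probe at a time. As a description of signal, the median level of the 20 tested Hox probes was 6.99, against 9.23 for all tested probes. Untested probes of the Hox genes named here ranged from 6.06 (Hoxd12, lowest line) to 7.07 (Hoxc12, highest line). In these bulk samples fewer cells with a transcript and less transcript per cell cannot be told apart.

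**Figure D2:**
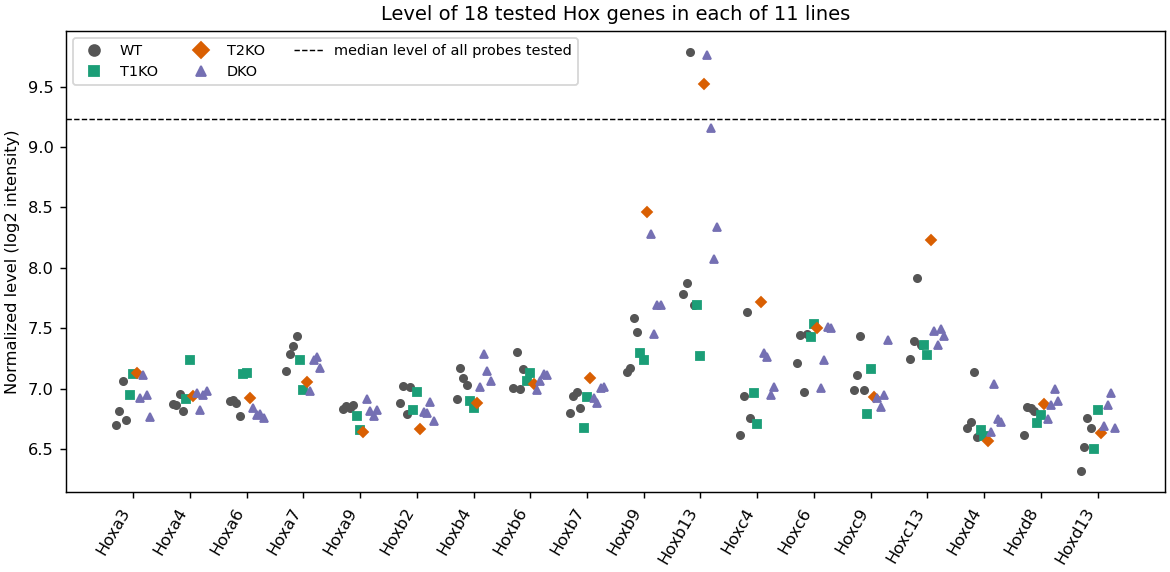
Each point is the normalized level (log2 intensity) of a tested Hox gene in 1 of 11 lines, coloured by genotype, with a dashed line at the median level of all tested probes (9.23). Hoxb13 rises above the line in WT 7, T2KO 16 and DKO 51, while the other genes plotted stay below it in every line.

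The targeted genes and the other cells of the culture were examined before the Hox values. Tet1 stood at 12.78 to 13.13 in the WT lines, 10.92 and 10.99 in T1KO 65 and 99 and 10.52 to 11.08 in DKO cells. Tet2 stood at 11.52 to 12.06 in WT cells, 9.74 in T2KO 16 and 9.41 to 10.12 in DKO cells. The deleted exons are not named in the labels. The ES cell list (10 of 10 genes tested) had a median level of 15.02 to 15.40 in the 11 lines. Of 26 feeder fibroblast genes, 26 were tested, and their summed intensity was 216800 to 374000 in WT, 292500 to 301600 in T1KO, 210900 in T2KO and 218800 to 295200 in DKO lines. In the pair DKO 60 and WT 7 their median log2 ratio was 0.73, with 25 of 26 positive, against -0.41 to -0.01 in the other pairs. WT 7 held the lowest sum of the WT lines.

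The number of Hox probes well above background also differed between arrays. It was 6 to 19 of 43 on the Cy3 arrays and 16 to 22 on the Cy5 arrays, while of all probes 54.4% to 60.7% and 61.8% to 68.2% were so. The Cy3 array with 19 was that of WT 7, which also had the highest Cy3 share of all probes, 60.7%. The other WT arrays had 6 to 13 Hox probes and 54.4% to 59.8% of all probes. Of the 20 tested Hox probes, 12 (60%) were highest in WT 7 among the 4 WT lines, while 28.5% of all tested probes were. This last share takes no account of size. The median level of the 20 was 7.03 in WT 7, 6.98 in WT 92, 6.93 in WT 94 and 6.89 in WT 6. Some margins were small, as for Hoxb7 at 6.97 in WT 7 and 6.94 in WT 92. For Hoxb2, Hoxb6 and Hoxc6, WT 7 was the lowest WT line. Like WT 92, WT 7 was measured on 1 array. For Hoxb13, Hoxc4, Hoxc13, Hoxa3, the median over the Hox probes and the comparison of male with female pairs, values are given with and without its pair.

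Hoxb13, the most posterior gene of its cluster, which stands apart from Hoxb9 by a wide gap without Hox genes, varied more between pairs than nearly all tested probes. Its level was 7.78 in WT 6, 7.87 in WT 92, 9.78 in WT 7 and 7.69 in WT 94, and 9.76 in DKO 51, 9.16 in DKO 61, 8.34 in DKO 60 and 8.07 in DKO 59. The T1KO lines stood at 7.69 and 7.27 and T2KO 16 at 9.52. The high lines were thus WT 7, DKO 51, T2KO 16 and DKO 61, of 3 genotypes, and 3 of the 4 WT lines lay below all DKO lines. Repeat arrays of 1 line differed by at most 0.33. The log2 ratio of DKO over WT was 1.98 and 1.28 in the male pairs and -1.45 and 0.38 in the female pairs of DKO 60 and 59, with a mean of 0.55 (SE 0.561, 95% interval -0.87 to 1.97, limma adjusted p = 0.574). Without the pair of DKO 60 and WT 7 it was 1.22 (limma adjusted p = 0.140), and without that of DKO 51 and WT 6 it was 0.07. The SD of its ratio over the 4 pairs was 1.48, larger than that of 99.7% of all tested probes. The median SD was 0.126 for the 20 Hox probes and 0.172 for all tested probes.

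**Figure D3:**
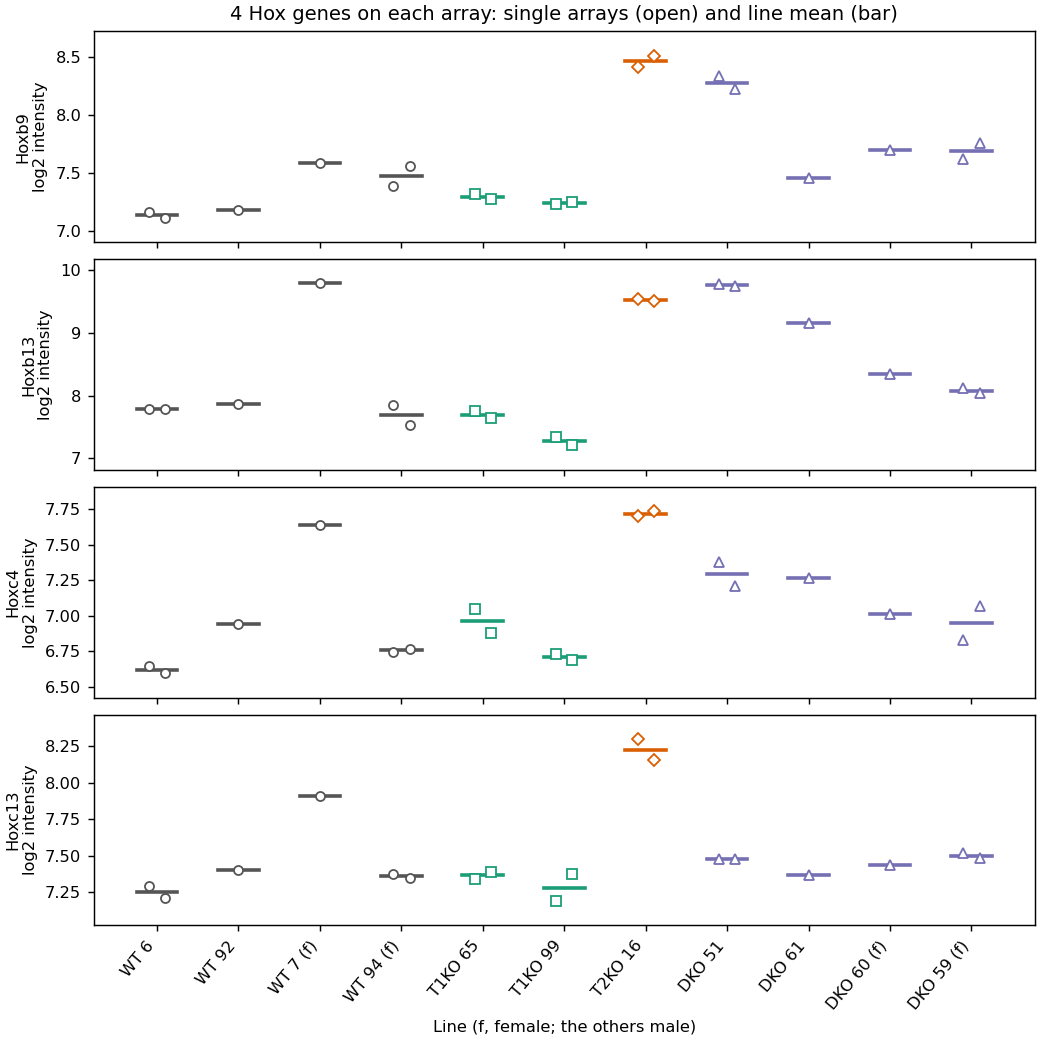
Panels show the log2 intensity of Hoxb9, Hoxb13, Hoxc4 and Hoxc13 on each single array (open symbols) and the mean of each line (bars), by line and genotype. Repeat arrays of a line lie close together, WT 7 stands above the other WT lines in all 4 panels, and T2KO 16 stands above both T1KO lines in all 4.

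Hoxc4, a gene of the anterior end of its cluster, was well above background on 8 of 8 Cy5 arrays but on 1 of 10 Cy3 arrays, that of WT 7. Its level was 6.62 in WT 6, 6.94 in WT 92, 7.64 in WT 7 and 6.76 in WT 94, and 7.29, 7.26, 7.01 and 6.95 in DKO 51, 61, 60 and 59. The T1KO lines stood at 6.97 and 6.71 and T2KO 16 at 7.72. T2KO 16 and WT 7 were the 2 highest lines, and the other WT lines lay at or below the lowest DKO line. The log2 ratio of DKO over WT was 0.67 and 0.32 in the male pairs and -0.62 and 0.19 in the female pairs of DKO 60 and 59, with a mean of 0.14 (SE 0.213, limma adjusted p = 0.712). Without the pair of DKO 60 and WT 7 it was 0.40 (adjusted p = 0.163 in limma), and without that of DKO 51 and WT 6 it was -0.04.

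Hoxb9, of the posterior part of the Hoxb cluster, stood at 7.14 and 7.18 in the male WT lines 6 and 92 and at 7.58 and 7.47 in the female WT lines 7 and 94. It was 8.28 in DKO 51, 7.45 in DKO 61, 7.70 in DKO 60 and 7.69 in DKO 59, and 7.30 and 7.24 in T1KO 65 and 99. T2KO 16 was the highest line at 8.47. WT and DKO lines overlapped, since DKO 61 lay below WT 7 and WT 94, but within each pair the DKO line was higher. The log2 ratios were 1.14, 0.28, 0.11 and 0.22 in the pairs of DKO 51, 61, 60 and 59, with a mean of 0.44 (SE 0.186, limma adjusted p = 0.214), and without the pair of DKO 51 the mean was 0.20.

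Hoxc13, at the posterior end of its cluster and known for its role in hair and nail, stood at 7.25 in WT 6, 7.40 in WT 92, 7.91 in WT 7 and 7.36 in WT 94. The DKO lines lay between 7.37 and 7.50 and the T1KO lines at 7.36 and 7.28, while T2KO 16 was the highest at 8.23. WT 7 and T2KO 16 were thus high, and the other lines lay between 7.25 and 7.50. The mean log2 ratio of DKO over WT was -0.04 (SE 0.130, limma adjusted p = 0.888), and without the pair of DKO 60 and WT 7 it was 0.11.

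Further tested genes of paralog groups 1 to 4 were Hoxa3, Hoxa4, Hoxb2, Hoxb4 and Hoxd4, genes of hindbrain and anterior trunk. Hoxa3 ranged from 6.70 to 7.13 over the 11 lines, Hoxa4 from 6.81 to 7.24, Hoxb2 from 6.67 to 7.02, Hoxb4 from 6.84 to 7.29 and Hoxd4 from 6.57 to 7.14. WT and DKO lines overlapped in all of them. Their mean log2 ratios of DKO over WT were 0.11, 0.06, -0.12, 0.08 and 0.01. That of Hoxa3 was 0.24 without the pair of DKO 60 and WT 7 and 0.04 without that of DKO 61 and WT 92. Hoxb2 was negative in 4 of 4 pairs (limma adjusted p = 0.278), and at -0.157 also in the pair of T2KO 16 and T1KO 65. Its repeat arrays of 1 line differed by up to 0.274. Hoxd4 was high in WT 7 at 7.14 and in DKO 61 at 7.04, where the other lines stood between 6.57 and 6.75.

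In the central groups 5 to 8, which act in the trunk, the tested genes were Hoxa6, Hoxa7, Hoxb6, Hoxb7, Hoxc6 and Hoxd8. Hoxc6 was above background in every channel at 6.97 to 7.54, with WT 7 and DKO 51 the lowest lines. Hoxa6 ranged from 6.76 to 7.13, Hoxa7 from 6.98 to 7.43, Hoxb6 from 6.99 to 7.31, Hoxb7 from 6.67 to 7.09 and Hoxd8 from 6.62 to 7.00. Hoxa7 was lower in the DKO line of 4 of 4 pairs, at a mean log2 ratio of -0.14 (SE 0.0576, limma adjusted p = 0.201), and Hoxd8 was higher in 4 of 4, at 0.10 (limma adjusted p = 0.354). The level ranges of WT and DKO lines overlapped for both. Repeat arrays of 1 line differed by up to 0.345 for Hoxa7 and 0.201 for Hoxd8. In the pair of T2KO 16 and T1KO 65, which had the same dye layout, the ratios were -0.185 and 0.162. Hoxa6, Hoxb6, Hoxb7 and Hoxc6 had mean ratios of -0.07, -0.05, 0.07 and 0.05.

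Of the posterior genes, which act in the lumbar and tail region, the limbs and the genital bud, Hoxa9, Hoxc9 and Hoxd13 were also tested. Hoxc9 was lower in the DKO line of 4 of 4 pairs, at a mean log2 ratio of -0.10 (limma adjusted p = 0.379). Its levels were 6.99 to 7.44 in WT and 6.85 to 7.40 in DKO lines. Repeat arrays of 1 line differed by up to 0.252 for Hoxc9, and its ratio of T2KO 16 over T1KO 65 was 0.142. Hoxa9 had 2 tested probes with opposite signs. The brighter one, from 52174165 to 52174224 on chromosome 6 in mm9, had levels of 6.83 to 6.87 in WT and 6.78 to 6.92 in DKO lines and a ratio of -0.02 (limma adjusted p = 0.883). The other, from 52175595 to 52175654, stood at 6.58 to 6.68 in WT and 6.69 to 6.91 in DKO lines, at a ratio of 0.20 (SE 0.0584, unadjusted p = 0.0174 and adjusted p = 0.118 in limma). Its line means nearly touched, with WT 7 at 6.683 and DKO 61 at 6.688, and single arrays overlapped, with 1 array of WT 6 at 6.738. Repeat arrays of 1 line differed by up to 0.267 for this probe. Hoxd13, on which distal limb growth depends, had a ratio of 0.23 (SE 0.0958, limma adjusted p = 0.204). Its levels were 6.32 to 6.76 in WT and 6.68 to 6.97 in DKO lines and overlapped. The second Hoxa9 probe and Hoxd13 were well above background on 0 of 6 WT arrays and entered the test through Cy5 groups alone.

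**Figure D4:**
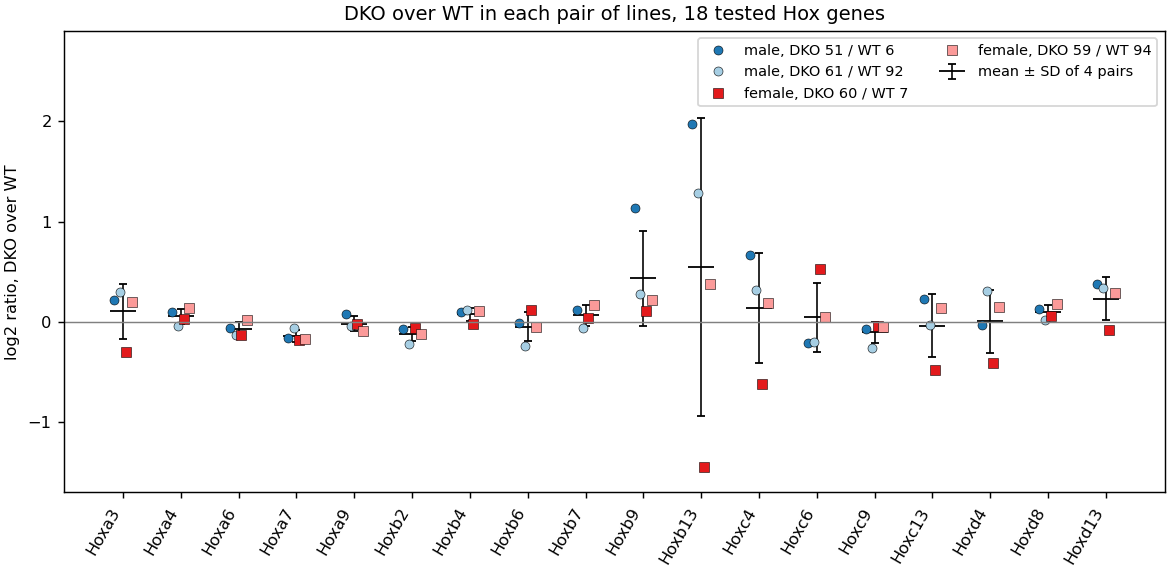
Points are log2 ratios of DKO over WT in the 4 pairs of lines (circles male, squares female) for 18 tested Hox genes, with the mean and SD of the 4 pairs in black. Hoxb13 spreads widest of those plotted, and its pair of DKO 60 and WT 7 lies below 0 while the other 3 pairs lie above it.

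Taking the clusters as a whole, the comparison of DKO with WT asked whether loss of both enzymes shifts Hox expression. Of the 20 probes, 0 passed limma's test over all 25869 tested probes (Benjamini-Hochberg adjusted p under 0.05), while 4.02% of all tested probes did. At an unadjusted p under 0.05 the count was 1 of 20 (5%), the second Hoxa9 probe, where 26% of all tested probes were past it. The ratio was positive for 13 of 20 probes (65%), against 53.4% of all tested probes, and the median log2 ratio was 0.06 against 0.02. These are not like for like, since 50% of the Hox probes but 12.75% of all tested probes entered through Cy5 groups alone. With no filter the median over all 43 Hox probes was 0.05. The Hox median was 0.11 without the pair of DKO 60 and WT 7, 0.03 to 0.07 without each of the others, and -0.02 when each array was centred on its median in place of loess. By cluster the medians were 0.06 in Hoxa, 0.07 in Hoxb, 0.01 in Hoxc and 0.10 in Hoxd. By pair the median of the 20 was 0.11 for DKO 51, -0.01 for DKO 61, -0.05 for DKO 60 and 0.14 for DKO 59. These p-values rest on how much the pairs differ among themselves, and 4 pairs limit the precision.

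Of the 5 comparisons made, the next set the effect in the 2 male pairs against that in the 2 female pairs. No Hox probe passed limma's adjusted threshold, as none of all tested probes did (0%), and 1 of 20 passed at an unadjusted p under 0.05, as did 5.09% of all. This was Hoxb13, whose male effect was higher by 2.16 on the log2 scale (SE 0.674, unadjusted p = 0.0290 and adjusted p = 0.834 in limma). The male WT lines and female WT 94 stood at 7.69 to 7.87 for this gene and WT 7 at 9.78. Hoxc4 differed by 0.72 in the same direction and Hoxc6 by -0.50, with limma adjusted p = 0.834 for both. Without the pair of DKO 60 and WT 7, a setting added after the data were seen that leaves 1 female pair to vary like the others, the differences were 1.25 for Hoxb13, 0.31 for Hoxc4 and -0.26 for Hoxc6 (limma adjusted p = 1 for each). Without that of DKO 59 and WT 94 they were 3.08, 1.12 and -0.74. In the pair of DKO 60 and WT 7 the feeder fibroblast genes had their median ratio of 0.73, and its part in these values was not tested.

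T2KO 16 was compared with T1KO 65 on the same arrays. Again 0 of 20 Hox probes passed limma's adjusted threshold, as did 0% of all tested probes, and 4 of 20 passed at an unadjusted p under 0.05, as did 12.7% of all. These were Hoxb9 at a log2 ratio of 1.17 (SE 0.318, limma adjusted p = 0.319), Hoxc13 at 0.86 (SE 0.256, adjusted p = 0.334 in limma), Hoxb7 at 0.41 (adjusted p = 0.366 in limma) and Hoxb13 at 1.83 (SE 0.674, adjusted p = 0.390 in limma). In all 4 the mean of the T2KO line was also above that of the other T1KO line, T1KO 99. For Hoxb7 single arrays overlapped, with 1 array of T1KO 99 at 7.087 and those of T2KO 16 at 7.094 and 7.082. Hoxc4 had a ratio of 0.75 over T1KO 65. Against the 2 T1KO lines, in which it was well above background on no array, it stood 1.83-fold higher in T2KO, and Hoxb7 1.22-fold. Both entered the test through Cy5 groups alone. Such folds compare the mean of the brighter group with that of the dimmer group. On each array of the dimmer group, a level under the lowest signal that counts as well above background was raised to that signal. Where no level was raised, as for Hoxb7, the fold is the observed difference and no lower limit. The folds of Hoxc4 and Hoxb7 are open to dye bias because no dyes were swapped. The median of the 20 Hox ratios was 0.14, against 0.01 for all tested probes. The ratio was positive for 13 of 20, where 52% of all tested probes were, and for all 4 Hoxc probes. Of the 20, 50% entered through Cy5 groups alone, Hoxc4 and Hoxc9 among them, against 12.75% of all tested probes. With no filter the median over all 43 Hox probes was -0.018, so the median of 0.14 depends on the filter. With 1 T2KO line, the spread in this test came from the DKO and WT pairs, and these ratios describe line 16 as much as its genotype.

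T1KO lines were set against male WT lines, all in Cy3. No Hox probe passed, and none had an unadjusted p under 0.05 in limma, where 0% and 13.6% of all tested probes did. The median difference of the 20 was 0.01, against -0.02 for all. The differences of the genes named here ran from -0.35 for Hoxb13 to 0.28 for Hoxa3, with limma adjusted p of 0.411 to 0.999. Hoxa6 had the smallest p, at 0.22 (SE 0.101, limma adjusted p = 0.411). It stood at 7.12 and 7.13 in the T1KO lines and at 6.90 and 6.91 in WT 6 and 92, without overlap. It was well above background on 4 of 4 T1KO and 0 of 3 male WT arrays and stood 1.16-fold higher in T1KO. Hoxa3 and Hoxa4 were likewise not well above background on any male WT array, but were so on 3 of 4 and 2 of 4 T1KO arrays. Hoxa3 stood at least 1.17-fold higher in T1KO (limma adjusted p = 0.460) and Hoxa4 1.16-fold higher (limma adjusted p = 0.556). Hoxa4 was at 6.919 in T1KO 65 and 7.235 in T1KO 99, against 6.873 in WT 6 and 6.865 in WT 92. Hoxa3 was at 6.952 and 7.122 in T1KO 65 and 99, against 6.700 and 6.817. Female WT 7 lay above T1KO 65 for both, at 6.955 for Hoxa4 and 7.066 for Hoxa3. The folds of Hoxa6 and Hoxa4 are the observed differences and no lower limits. The limit for Hoxa3 allows for signal near background and not for the spread between lines.

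Male DKO lines were set against T2KO 16, both in Cy5, which compares cells with and without Tet1 where Tet2 is lost. No Hox probe passed limma's adjusted threshold, while 0.00773% of all tested probes did, namely 2 probes, neither of a Hox gene. At an unadjusted p under 0.05 the count was 2 of 20, against 12.9% of all. They were Hoxc13, lower in the DKO lines by a log2 difference of -0.81 (SE 0.133, adjusted p = 0.325 in limma), and Hoxc4 at -0.44 (SE 0.126, adjusted p = 0.340 in limma). For both, T2KO 16 lay above the 2 male DKO lines. With 1 T2KO line, the spread in this test came from the male and female DKO lines alone. The median of the 20 was -0.06, against 0.02 for all. All 4 Hoxc probes were negative, while 53% of all tested probes were positive. With no filter the median over all 43 Hox probes was 0.039, so its sign depends on the filter. Hoxb13 stood at -0.07. T2KO 16 takes part in this comparison and in that with T1KO. The values of all 4 Hoxc probes, Hoxc13 and Hoxc4 among them, thus rest on the same line in both.

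Regulators and partners of the Hox clusters were taken from lists of known genes. Of 18 tested Polycomb regulators, which keep Hox genes silent, 3 rose in DKO over WT, 0 fell and 15 did not pass (median 0.11). Of all 25869 tested probes 4.02% passed in this comparison, with 636 rises and 404 falls. Among them were Cbx2 at 0.72 (SE 0.0792, adjusted p = 0.0230 in limma), a chromobox subunit of Polycomb repressive complex 1, and Kdm2b at 0.39 (adjusted p = 0.0438 in limma), which brings a variant of that complex to CpG islands. Of 11 genes of the trithorax group and H3K27 demethylases, which oppose Polycomb, Kdm6b, a demethylase, rose by 0.44 (limma adjusted p = 0.0471), 0 fell and 10 did not pass, with Ash2l at -0.48 the largest value among these 10. Cbx2, Kdm2b and Kdm6b were higher in the DKO line of 4 of 4 pairs, by 0.24 to 0.92. The calls in these lists did not hold in every setting. With any 1 pair left out, 0 of all tested probes passed in DKO over WT. The count was also 0 when limma's prior was tied to intensity. With normexp on all spots it was 189, against 1040 in the main fit.

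In the retinoic acid pathway, whose ligand switches Hox genes on from the anterior end, 1 of 15 genes rose, 1 fell and 13 did not pass. Rxra, a partner of the retinoic acid receptors, rose by 0.77 (limma adjusted p = 0.0449), and Rxrb, another, was lower at -0.49 (limma adjusted p = 0.0485). Neither passed when any 1 pair was left out. Stra8, at 0.81 (limma adjusted p = 0.368), had the largest ratio of the list. Among 9 TALE cofactors (Pbx, Meis and Pknox genes, whose proteins bind DNA together with Hox proteins) 0 passed limma's test and 1 had an unadjusted p under 0.05, where 26% of all tested probes did, with Pknox2 largest at 0.69 (adjusted p = 0.188 in limma). Of 3 tested Cdx and ParaHox genes 0 passed limma's test at either threshold, with Cdx2, an activator of central Hox genes, at 0.39 (limma adjusted p = 0.320). In the other comparisons 0 of the 71 genes of these lists and of the genes beside the clusters passed limma's adjusted threshold. At an unadjusted p under 0.05 they numbered 6 for male against female pairs (5.09% of all tested probes), 8 for T2KO over T1KO (12.7% of all), 10 for T1KO against male WT (13.6% of all) and 12 for male DKO against T2KO (12.9% of all).

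The 15 tested genes that lie beside the clusters had median levels of 11.23 to 11.83 in the 11 lines. Of them 0 passed in DKO over WT by limma and 5 had an unadjusted p under 0.05 (26% of all tested probes did), with Atp5g3, near the Hoxd cluster, largest at 0.44 (limma adjusted p = 0.0520), and their median was 0.03. Evx1, a homeobox gene next to Hoxa13, stood at 0.35 (limma adjusted p = 0.113). Of germ layer markers, Eomes rose by 0.88 (adjusted p = 0.0475 in limma) among 11 primitive streak and mesoderm genes, a list that also holds Cdx2 and Evx1. Neurog2, well above background on no WT array and tested through Cy5 groups alone, was at least 1.43-fold higher (adjusted p = 0.0226 in limma) among 12 neuroectoderm genes, with Sox3 the largest of that list at 0.88 (limma adjusted p = 0.109). Of 8 endoderm genes and of 10 ES cell genes 0 passed limma's test, while 2 and 1 were past an unadjusted p of 0.05 (26% of all tested probes were), with Lama1 at -0.79 and Dppa5a at 0.43 the largest. Of the 26 feeder fibroblast genes S100a6 fell by 0.66 (limma adjusted p = 0.0350), and the others did not pass. Eomes, Neurog2 and S100a6 did not pass either when any 1 pair was left out, since 0 of all tested probes then did.

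Promoter sequences were available from RefSeq on GRCm38.p6 for 22 of the 39 Hox genes, each with 250 bases before and 50 after the start. Counting the letters CG, which read the same on both strands, the 22 promoters held a median of 17.5 (4 to 45), against 8 over the promoters of 27025 genes, 1 entry with the most CG for each. The 9 that belong to tested Hox genes had a median of 9 (4 to 37) and the 13 of untested ones 20 (9 to 45). The promoters of Hoxc4 and Hoxd13 are shown from 250 bases upstream to the start, CG in capitals, because these 2 tested genes differ in CG content. They lie at chr15:103034145-103034394 and chr2:74667975-74668224, both on the plus strand, and hold 8 and 31 CG.
Hoxc4: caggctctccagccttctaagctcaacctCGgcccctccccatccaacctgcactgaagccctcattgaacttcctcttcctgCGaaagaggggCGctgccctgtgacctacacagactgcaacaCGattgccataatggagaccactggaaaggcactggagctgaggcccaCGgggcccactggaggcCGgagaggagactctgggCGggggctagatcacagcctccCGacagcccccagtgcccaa
Hoxd13: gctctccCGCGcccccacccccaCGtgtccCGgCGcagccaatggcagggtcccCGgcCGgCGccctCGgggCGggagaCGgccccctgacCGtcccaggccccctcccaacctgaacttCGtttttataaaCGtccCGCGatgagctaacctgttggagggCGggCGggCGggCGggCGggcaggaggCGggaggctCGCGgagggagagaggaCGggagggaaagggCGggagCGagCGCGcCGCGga
DNA methylation was not measured on these arrays, so the counts describe the letters only.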

How the data were processed

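RNA of the 11 lines was measured on 10 two-colour arrays. Per the file headers, the deposited scanner files hold unnormalized spot intensities (means) and local background intensities (medians) from Agilent Feature Extraction 10.1.1.1, and a log10 ratio of processed Cy5 over Cy3 intensity. The authors' deposited value table holds what look like log2 ratios, Cy5 over Cy3, judged by correlation with those log10 ratios (r = 0.925 to 0.971, slopes 2.78 to 2.93), and the medians of its columns were 0.00178 to 0.00752. How it was normalized and centred is not given in the sources used here. The table was used only as an alternative.

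Background was corrected with normexp (offset 50), ratios were normalized by loess within arrays and channels by Aquantile between arrays, in limma 3.58.1 on R 4.3.3. Gene spots dimmer than their local background (71 to 122 per array) were kept out of the normexp fit. This choice was made after gene values had been seen, and the planned fit on all spots is an alternative. Control spots and the 173 to 337 outlier spots per array were left out, spots of 1 probe were averaged, and repeat arrays were averaged to a pair or line. The excluded channel took part in the normalization only. Ratios or channel levels were fitted with lmFit and eBayes over 25869 probes, with Benjamini-Hochberg adjustment, and the procedure was tested on simulated data. The labels do not say whether lines are independent in origin beyond their numbers, so p-values measure the spread between these lines. Precision is limited by their number, and with 1 T2KO line no spread between T2KO lines was measured.

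Hox genes with a tested probe were to be given line by line and the others by counts and ranges; tested genes with small differences are given here by their range over lines. Of each other list, the genes past the threshold and the one with the largest ratio in DKO over WT are named. Evx1 was named after its values were seen. Some genes and a probe sequence are not reported here, though counts and medians over the lists include these genes. The members and lists were chosen with earlier results of these data known. Alternatives covered the background fit, filter, probe choice, centring, the scanner's ratios, the authors' table, covariates and left-out pairs or lines.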

Additional observations from a re-analysis of the deposited data

Results flagged for a closer look

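Of 60 groups of 4 lines or pairs examined, 9 had 1 value far from the others, where chance gives about 1 in 20 groups, or 3. Hoxb13 stood at 9.78 in WT 7, while the other WT lines lay at 7.69 to 7.87. Hoxb9 had a log2 ratio of 1.14 in the pair of DKO 51 and WT 6, while the other pairs lay at 0.11 to 0.28. The pair of DKO 60 and WT 7 was low for Hoxa3 at -0.30 (others 0.20 to 0.30) and for Hoxb4 at -0.023 (others 0.10 to 0.12). The pair of DKO 61 and WT 92 was low for Hoxc9 at -0.26 (others -0.07 to -0.04) and high for Hoxa7 at -0.055 (others -0.18 to -0.16). Among levels, Hoxc9 was high in DKO 60 at 7.40 (others 6.85 to 6.95), Hoxd8 was low in WT 6 at 6.62 (others 6.82 to 6.85) and Hoxa6 was low in WT 94 at 6.77 (others 6.89 to 6.91). Hoxd8 and Hoxa6 were each well above background on 1 of 6 WT arrays. Repeat arrays of 1 line differed by up to 0.201 for Hoxd8 and 0.167 for Hoxa6.

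The Cy5 channel that the labels exclude for its genotype was left out of the group comparisons and is described here by its signal alone. In it, 11 of the 20 tested Hox probes (55%) were well above background and lay above every WT line on both arrays, as did 25.7% of all tested probes, and 6 (30%) lay above all 11 lines, as did 11.7% of all. WT RNA was in Cy3, so the dye and the sample cannot be told apart in the first count. The shares are also not like for like, since 50% of the 20 Hox probes but 12.75% of all tested probes entered through Cy5 groups alone.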

How the results depend on the processing

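No paired analysis was possible by replicate number because these numbers mark repeat arrays of the same lines, while the DKO over WT ratios were already taken within pairs of lines. Of 245 log2 ratios of 19 single Hox probes in DKO over WT under the alternatives, 227 kept their direction and side of the threshold and 16 changed sign, and 7 of 19 probes kept both throughout. The cause of these changes was not tested. No Hox probe passed in any comparison except under median centring (1, Hoxb2 at -0.23) and the scanner's log ratios (1, the second Hoxa9 probe at 0.91), both for DKO over WT. Median centring moved the median of all probes by 0.23 and turned Hoxd8 to -0.036, Hoxd4 to -0.144, Hoxa4 to -0.049, Hoxb7 to -0.034 and Hoxa3 to -0.008. The scanner's ratios turned Hoxc6 to -0.001 and Hoxc13 to 0.007, normexp on all spots turned Hoxd4 to -0.015, and the authors' table turned the brighter Hoxa9 probe to 0.07. With 1 pair left out in turn, Hoxc4 ranged from -0.037 (without DKO 51 and WT 6) to 0.395 and Hoxc6 from -0.118 (without DKO 60 and WT 7) to 0.129. Hoxd4 ranged from -0.098 (without DKO 61 and WT 92, and -0.043 without DKO 59 and WT 94) to 0.144. Hoxb6 reached 0.02 without DKO 61 and WT 92, Hoxc13 ranged from -0.123 to 0.112 (without DKO 60 and WT 7), and the brighter Hoxa9 probe from -0.05 to 0.008 (without DKO 59 and WT 94). The Hox median of T2KO over T1KO was 0.003 with normexp on all spots, -0.018 with no filter, 0.006 with median centring and 0.47 with the scanner's ratios. With the scanner's ratios it was 0.30 for DKO over WT and 0.17 for male against female pairs. For the latter it was -0.018 (without DKO 60 and WT 7) to 0.055 with 1 pair left out, an alternative added after the data were seen. That of male DKO against T2KO was 0.039 with no filter. That of T1KO against male WT was 0.10 with loess only and -0.10 to 0.11 with 1 line left out (lowest without WT 6, highest without WT 92).

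Calls over all probes in DKO over WT numbered 1040, against 189 with normexp on all spots, 8924 with median centring, 537 in the authors' table, 7 with sex as covariate, 1744 with single arrays and the pair as a random block, and 0 with any pair left out or a prior that follows intensity. The only T2KO line could not be left out. Most Hox probes lay near background, where the added constant shrinks changes.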

Other observations

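Hoxa11as, an RNA antisense to Hoxa11 and no member of the gene list, was chosen after its values were seen. Its probe spans bases 52199709 to 52199768 of chromosome 6 (mm9). It was well above background on 8 Cy3 and 8 Cy5 arrays of labelled lines, while the Hoxa11 probe was so on none of them. Its level was 6.97 to 7.34 over the 11 lines, and the log2 ratio of DKO over WT was 0.15 (SE 0.0827, limma adjusted p = 0.305).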
